A study of Mus musculus with 6 samples.

Results

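The insulin-like growth factor (IGF) and insulin signalling genes described here are 10 symbols: the ligands Igf1 and Igf2, the receptors Igf1r and Insr, the receptor substrates Irs1 and Irs2, and the binding proteins Igfbp3, Igfbp4, Igfbp5 and Igfbp7. They were taken by symbol from a table of 46095 genes, and all 10 were found in it and passed the filter on low counts. RNA was sequenced from 3 hearts of STAT3cKO mice, in which the transcription factor STAT3 was deleted in cardiomyocytes only, and from 3 hearts of wild-type mice. The labels used here give no treatment, age, sex, strain, litter or Cre line, and do not say that each library came from a separate animal. The p-values therefore only set the group difference against the spread between these libraries, which may in part be technical variation. Hearts carry the numbers of their titles, 3, 6 and 91 for STAT3cKO and 1, 3 and 4 for wild type.

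IGF1 and IGF2 are secreted peptides that bind the IGF1 receptor, and insulin binds the related insulin receptor. Both receptors are tyrosine kinases that phosphorylate the adaptor proteins IRS1 and IRS2, which recruit PI3-kinase and so activate AKT, mTOR complex 1 and glucose uptake and restrain the FoxO transcription factors. IGF-binding proteins hold the ligands outside the cell, and in the heart this pathway is known for its part in growth, survival and fuel use of cardiomyocytes. Cardiomyocytes carry both receptors, while cardiac Igf1 transcripts are known to come largely from other cells, among them fibroblasts and macrophages.

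The libraries held between 15416877 and 18264052 counts. Stat3 stood at 52.9, 63.7 and 59.6 CPM in STAT3cKO hearts 3, 6 and 91, against 99.7, 85.8 and 97.5 CPM in wild-type hearts 1, 3 and 4, so it was lower in every STAT3cKO heart (log2 fold change -0.68, edgeR adjusted p = 0.000677). Levels are given in CPM, the share of a library's TMM-scaled total on the usual CPM scale. Heart RNA also holds Stat3 transcripts of undeleted cells. The 10 cardiomyocyte markers together took 59822 to 70953 CPM in STAT3cKO hearts and 52474 to 59168 CPM in wild-type hearts. Of these Myl2, Tnnt2 and Tnni3 were higher, Ryr2 was lower and 6 did not pass. The higher markers averaged 12724, 6927 and 5619 CPM in STAT3cKO against 7317, 4730 and 3659 CPM in wild type. Their transcripts are the shortest of that list, at 889, 1200 and 912 nt. The 4 liver markers together took at most 1.15 CPM in any heart. Fold changes in these libraries followed transcript length: Spearman's rho was -0.463 over 13580 genes, which are not independent replicates. Member fold changes are therefore also given from a length-corrected fit, in which an offset removed each library's trend with transcript length and GC content. The cause of this trend was not tested. The offset removes the trend whatever its cause, including any part that belongs to the genotype. With it Stat3 stood at -0.40 (adjusted p = 0.0116). The members are long, with a median transcript of 6164.5 nt against 3068.5 nt for all genes tested.

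Both ligands were lower in STAT3cKO hearts, Irs1 was higher, and no receptor or binding protein passed the test. Of the 10 genes, 2 were lower (20%) and 1 was higher (10%) at an edgeR adjusted p under 0.05, where 12.6% of the 14484 genes tested were lower and 13.2% higher. With 10 members these shares are near the background. The median log2 fold change of the 10 was 0.03, and that of all genes tested was 0.00. With length correction 0 were lower and 2 were higher (Igf1r and Irs1), beside 7.47% lower and 10.4% higher of all genes, and the members' median moved to 0.22 against 0.02 for all genes. Igf1 and Igf2 were lower in every STAT3cKO heart than in any wild-type heart, which held for 21.5% of genes tested. Irs1 was higher in every STAT3cKO heart than in any wild-type heart, which also held for 21.5%.

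**Figure D1:**
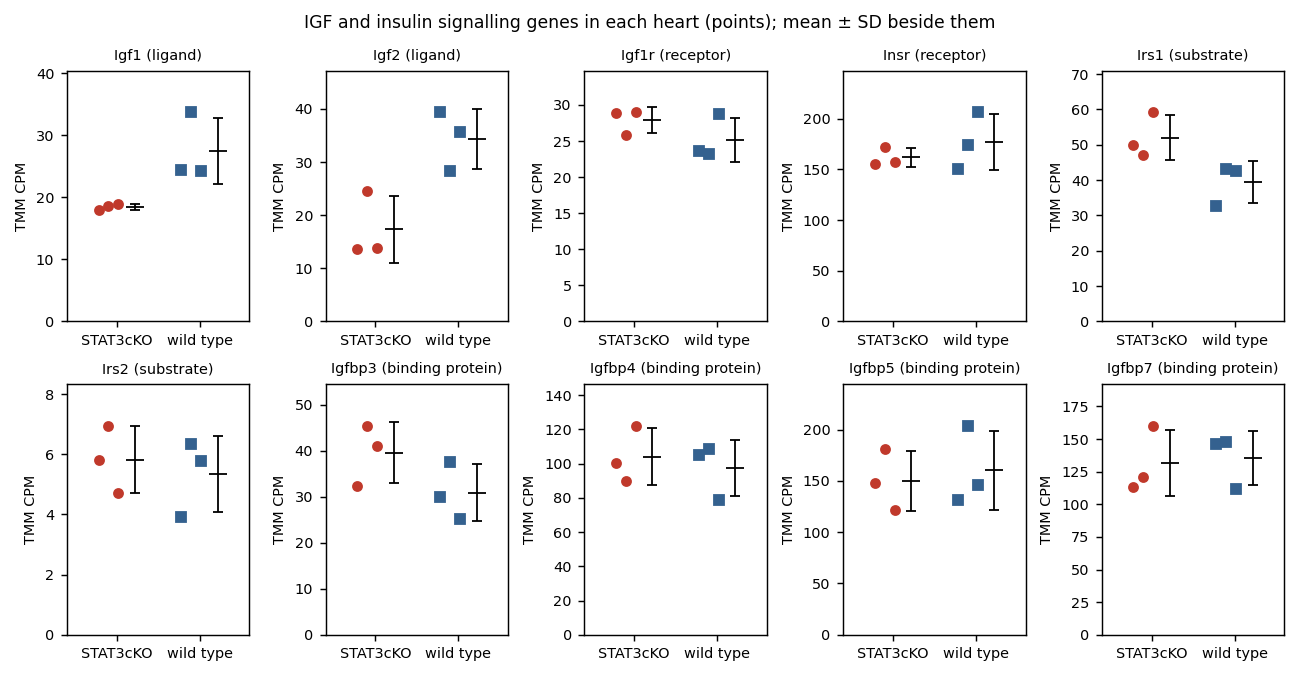
TMM-scaled CPM of the 10 genes in each heart, STAT3cKO as red circles and wild type as blue squares, with mean ± SD (n = 3) beside the points and axes starting at 0. The groups are apart for Igf1, Igf2 and Irs1 and overlap for the other 7 genes.

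Sequence upstream of the genes was read for the motif of STAT dimers, since the deleted gene encodes a STAT factor. RefSeq promoter windows of GRCm38.p6 were found for 9 of the 10 genes (12 annotated starts, of which Igf2 has 4). Insr had no window. The 250 bases before each start were searched on both strands for TTCNNNGAA, and for the FoxO motif GTAAACA, which was added after the data were seen. None of the 12 windows held either motif, which says only that these letters are absent there. Over all 32851 windows of that length 7.02% held the first and 3.17% the second. The windows differed widely in CG dinucleotides, with a median of 6 over all windows. Those shown are the windows of Igf2 and Irs1 that lie outside annotated exons, because these genes moved in opposite directions. The window of Igf1 lies inside exons of other Igf1 transcripts and is not shown. Capitals mark each CG dinucleotide, and all 3 sequences are on the minus strand, written 5′ to 3′.
Igf2, start 1, chr7:142666817-142667066: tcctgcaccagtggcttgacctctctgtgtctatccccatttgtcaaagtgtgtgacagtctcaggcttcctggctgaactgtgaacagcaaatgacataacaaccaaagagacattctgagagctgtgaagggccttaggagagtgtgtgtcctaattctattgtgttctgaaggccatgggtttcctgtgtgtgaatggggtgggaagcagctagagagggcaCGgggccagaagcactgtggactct
Igf2, start 4, chr7:142657497-142657746: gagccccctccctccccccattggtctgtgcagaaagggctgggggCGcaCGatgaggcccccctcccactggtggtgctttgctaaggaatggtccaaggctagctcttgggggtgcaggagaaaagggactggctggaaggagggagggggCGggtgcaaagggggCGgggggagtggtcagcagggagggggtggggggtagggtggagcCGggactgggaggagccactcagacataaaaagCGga
Irs1, chr1:82291440-82291689: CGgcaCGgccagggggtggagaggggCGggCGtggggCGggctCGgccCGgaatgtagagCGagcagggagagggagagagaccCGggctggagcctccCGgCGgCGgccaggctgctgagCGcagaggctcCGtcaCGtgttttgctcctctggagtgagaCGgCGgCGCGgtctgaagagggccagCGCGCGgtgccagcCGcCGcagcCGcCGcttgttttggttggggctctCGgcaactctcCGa
The window of Igf2 start 1 holds 1 CG dinucleotide, and 92.1% of all windows hold at least as many. The window of start 4 holds 6, matched or exceeded by 50.4%. The Irs1 window holds 28, matched or exceeded by 7.61%. The other Igf2 windows, which overlap Igf2 exons, held 10 at start 2 and 22 at start 3, so the Igf2 windows span low and high values. The remaining windows held 42 in Igf1r, 34 in Irs2, 32 in Igfbp3, 26 in Igfbp7, 22 in Igfbp4, 10 in Igfbp5 and 5 in Igf1. Gene-level counts do not show which of the 4 Igf2 starts was used.

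Igf1, the growth factor induced by growth hormone and also made locally in the heart (chromosome 10, 87858265 to 87937047, plus strand), was at 17.9, 18.7 and 18.9 CPM in STAT3cKO hearts 3, 6 and 91, against 24.5, 33.7 and 24.2 CPM in wild-type hearts 1, 3 and 4. All STAT3cKO hearts were close together and below the lowest wild-type heart, and wild type replicate 3 stood above the other wild-type hearts. The means were 18.5 ± 0.498 CPM in STAT3cKO and 27.5 ± 5.39 CPM in wild type (SD, n = 3 each). The difference was -0.57 ± 0.13 (SE) on the log2 scale and passed (edgeR adjusted p = 0.00894). The call passed in each of the 6 fits that left out 1 heart, with log2 fold changes between -0.65 and -0.40. With length correction it was -0.30 and did not pass (adjusted p = 0.125). Igf1os, the antisense gene that overlaps the locus without sharing exons, held at most 1 count in any heart.

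Beside this difference, 8 of 12 macrophage and monocyte markers were lower and 0 higher, and their summed level was 269 to 394 CPM in STAT3cKO hearts against 448 to 563 CPM in wild-type hearts. Of 12 fibroblast markers 2 were lower and 1 was higher, and their summed level overlapped between the groups, at 3679 to 4506 CPM in STAT3cKO and 2841 to 4264 CPM in wild type. With length correction 9 macrophage and monocyte markers were lower and 0 higher, and 1 fibroblast marker was lower and 1 higher. Of all genes tested 12.6% were lower and 13.2% higher, and with length correction 7.47% and 10.4%. No marker of either list was at 0 in all hearts. The part of either cell type in the Igf1 difference was not tested, and in bulk samples fewer cells of a type and less RNA per cell cannot be told apart.

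Igf2, an imprinted growth factor known mainly for fetal growth (chromosome 7, 142650768 to 142666816, minus strand), was at 13.6, 24.6 and 13.8 CPM in STAT3cKO hearts 3, 6 and 91, against 39.3, 28.2 and 35.6 CPM in wild-type hearts 1, 3 and 4. STAT3cKO replicate 6 came nearest to the wild-type range, and wild type replicate 3 was the lowest of its group. Means were 17.3 ± 6.30 CPM in STAT3cKO and 34.4 ± 5.66 CPM in wild type (SD, n = 3 each). Its log2 fold change, -0.99 ± 0.25 (SE; edgeR adjusted p = 0.0251), was the farthest from 0 among the 10 genes. It did not pass with length correction (-0.83, adjusted p = 0.0697). Without STAT3cKO replicate 3 or 91 or wild type replicate 1 or 4 it did not pass either (adjusted p = 0.0593, 0.073, 0.0702 and 0.0796), with log2 fold changes of -0.85, -0.84, -0.89 and -0.97. Igf2 shares 98 exon bases with the antisense gene Igf2os, which held 1 to 4 counts per heart, and 3596 with the same-strand model Gm49394, which has no row in the table.

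Markers of endothelial cells, a known source of Igf2, were lower as well. Of 12 endothelial markers 8 were lower and 0 higher, with a summed level of 1198 to 1336 CPM in STAT3cKO hearts against 1742 to 2027 CPM in wild-type hearts, and none at 0 in all hearts. The 4 endocardial markers, of which 3 were lower, summed to 46.8 to 61.8 CPM in STAT3cKO hearts against 81.1 to 89.4 CPM in wild-type hearts. With length correction 7 endothelial and 3 endocardial markers were lower and 0 higher. The shares over all genes tested were 12.6% lower and 13.2% higher, or 7.47% and 10.4% with length correction. The part of endothelial and endocardial cells in the Igf2 difference was not tested.

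Neither receptor passed the test without length correction. Igf1r, the receptor of both ligands (chromosome 7, 67952257 to 68233668, plus strand), was at 28.9, 25.9 and 29.0 CPM in STAT3cKO hearts 3, 6 and 91, against 23.7, 23.1 and 28.7 CPM in wild-type hearts 1, 3 and 4. Wild type replicate 4 lay within the STAT3cKO range, and the log2 fold change was 0.15 ± 0.11 (SE; edgeR adjusted p = 0.354). Its transcript is the longest of the 10 (11409 nt), and with length correction the log2 fold change was 0.59 and passed (adjusted p = 0.00556).

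Insr, the insulin receptor (chromosome 8, 3150922 to 3279649, minus strand), was at 155, 173 and 157 CPM in STAT3cKO hearts 3, 6 and 91, against 151, 174 and 206 CPM in wild-type hearts 1, 3 and 4. The STAT3cKO values all lay inside the wild-type range. The log2 fold change was -0.13 ± 0.11 (SE; edgeR adjusted p = 0.429), and with length correction it had the opposite sign, 0.25 (adjusted p = 0.0927). Neither receptor had an unadjusted p under 0.05, where 5586 of the 14484 genes tested did. DESeq2 and limma-voom called 0 of the receptors. Per kilobase of transcript, Insr exceeded Igf1r by 6.55, 8.12 and 6.63 times in STAT3cKO hearts 3, 6 and 91 and by 7.76, 9.17 and 8.77 times in wild-type hearts 1, 3 and 4, and these ranges overlap.

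Irs1, a docking protein for PI3-kinase (chromosome 1, 82233105 to 82291439, minus strand), was at 49.8, 47.0 and 59.1 CPM in STAT3cKO hearts 3, 6 and 91, against 32.7, 43.1 and 42.5 CPM in wild-type hearts 1, 3 and 4. The groups did not overlap, although STAT3cKO replicate 6 was close to the upper wild-type hearts. It averaged 52.0 ± 6.35 CPM in STAT3cKO and 39.4 ± 5.81 CPM in wild type (SD, n = 3 each). On the log2 scale it differed by 0.40 ± 0.12 (SE), which passed (edgeR adjusted p = 0.0323). The call was lost without STAT3cKO replicate 3 or 91 (adjusted p = 0.0645 and 0.116) and without wild type replicate 1 or 4 (0.125 and 0.0534), with log2 fold changes of 0.43, 0.30, 0.28 and 0.46. With length correction it was 0.80 (adjusted p = 0.00205), and with library size as the only scaling 0.30 (adjusted p = 0.133). A model on the other strand, Gm9747, shares 2822 exon bases with Irs1 and has no row in the table, so reads of the pair could not be told apart if counting ignored strand. The summed cardiomyocyte markers, given above, were also higher in every STAT3cKO heart. Of the 10, however, only Myl2, Tnnt2 and Tnni3, which have the shortest transcripts of that list, were higher. Ryr2 was lower and 6 did not pass, where 13.2% of all genes tested were higher and 12.6% lower. With length correction Myl2 and Ttn were higher and none of the 10 was lower. The part of cardiomyocytes in the Irs1 difference was not tested.

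Irs2, the second docking protein and a known FoxO target (chromosome 8, 10984681 to 11008929, minus strand), was the lowest of the 10. It was at 5.80, 6.95 and 4.71 CPM in STAT3cKO hearts 3, 6 and 91, against 3.91, 6.32 and 5.76 CPM in wild-type hearts 1, 3 and 4. The groups overlapped almost wholly. Its counts of 76 to 107 per heart gave 0.13 ± 0.23 (SE) on the log2 scale (edgeR adjusted p = 0.713), which did not pass. With length correction it was 0.37 (adjusted p = 0.263).

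**Figure D2:**
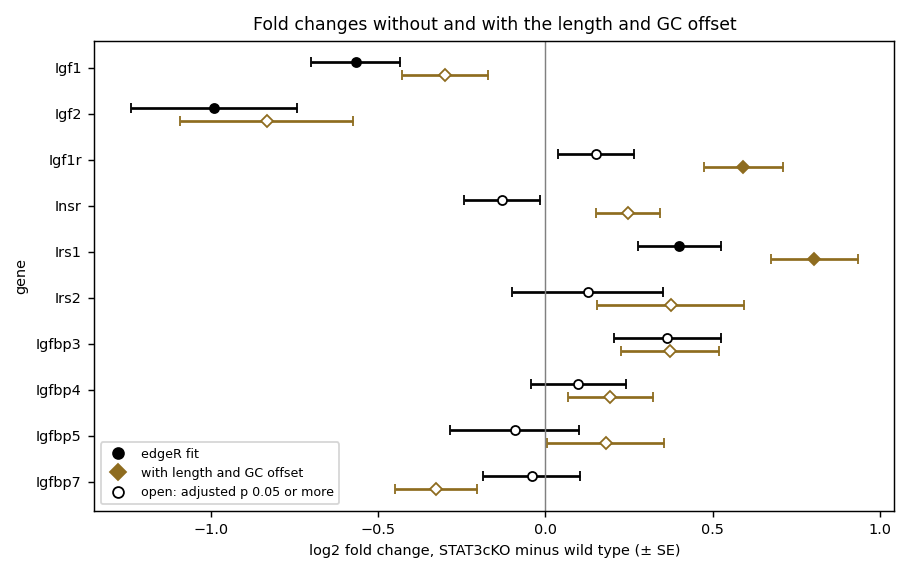
Log2 fold changes (STAT3cKO minus wild type, ± SE) of the 10 genes from edgeR without (black circles) and with (brown diamonds) the correction for length and GC content, filled where the adjusted p was under 0.05. With the correction Igf1r stood at 0.59 and Irs1 at 0.80, and Igf1 (-0.30) and Igf2 (-0.83) were closer to 0.

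None of the binding proteins was called. Igfbp3, the main carrier of IGFs in blood (chromosome 11, 7206086 to 7215498, minus strand), was at 32.3, 45.4 and 41.1 CPM in STAT3cKO hearts 3, 6 and 91, against 29.9, 37.5 and 25.2 CPM in wild-type hearts 1, 3 and 4. STAT3cKO replicate 3 lay below wild type replicate 3, and its difference on the log2 scale, 0.36 ± 0.16 (SE; unadjusted p = 0.0451, edgeR adjusted p = 0.121), did not pass. Without wild type replicate 3 it was 0.52 and passed (adjusted p = 0.0361). With length correction it was 0.37 (adjusted p = 0.1004).

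Igfbp4, which inhibits IGF action (chromosome 11, 99040005 to 99052655, plus strand), was at 100.2, 89.9 and 122 CPM in STAT3cKO hearts 3, 6 and 91, against 105, 108 and 78.6 CPM in wild-type hearts 1, 3 and 4 (log2 fold change 0.10 ± 0.14, SE; edgeR adjusted p = 0.645). Igfbp5, a binding protein that adheres to matrix (chromosome 1, 72858065 to 72874865, minus strand), was at 148, 181 and 122 CPM in STAT3cKO, against 131, 204 and 146 CPM in wild type, in the same replicate order (-0.09 ± 0.19, SE; adjusted p = 0.759). Igfbp7, a relative with low affinity for IGFs that is found in the matrix of vessels (chromosome 5, 77349240 to 77408045, minus strand), was at 114, 121 and 160 CPM in STAT3cKO, against 147, 148 and 112 CPM in wild type (-0.04 ± 0.15, SE; adjusted p = 0.857). With length correction Igfbp7 was farther from 0 and did not pass (-0.33 ± 0.12, adjusted p = 0.0851), nor did Igfbp4 (0.19, 0.326) or Igfbp5 (0.18, 0.522). All 3 had overlapping groups in which hearts of the same genotype differed more than the group means. Polr2b shares 85 exon bases with Igfbp7 on the other strand. Among the 4 binding proteins 1 had an unadjusted p under 0.05 (Igfbp3), beside 5586 of the 14484 genes tested. DESeq2 and limma-voom called 0 of the 4.

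Levels of different genes were compared per kilobase of transcript, as group means. In STAT3cKO hearts Igfbp7 was highest at 110 ± 20.9 CPM per kb, followed by Igfbp4 (27.2 ± 4.30) and Igfbp5 (25.01 ± 4.89), whose ranges overlap. Insr (17.3 ± 1.004) and Igfbp3 (16.4 ± 2.77) also overlapped. Irs1 (5.68 ± 0.694) came next and overlapped Igf2 (3.67 ± 1.33), then Igf1 (2.62 ± 0.0705), Igf1r (2.45 ± 0.154) and Irs2 (0.920 ± 0.177). In wild-type hearts Igfbp7 (113 ± 16.9 CPM per kb) led again, followed by Igfbp5 (26.7 ± 6.40), Igfbp4 (25.4 ± 4.26) and Insr (18.9 ± 2.98), each overlapping its neighbour. Igfbp3 (12.7 ± 2.56) and Igf2 (7.28 ± 1.198) followed, then Irs1 (4.31 ± 0.636), which overlapped Igf1 (3.90 ± 0.764), then Igf1r (2.21 ± 0.268) and Irs2 (0.843 ± 0.199) (SD, n = 3 in each group). The mean of Igf2 stood below that of Irs1 in STAT3cKO hearts, with overlapping ranges, and above it in wild-type hearts, without overlap. The ligands together summed to 5.42, 7.86 and 5.60 CPM per kb in STAT3cKO hearts 3, 6 and 91, against 11.8, 10.8 and 11.0 CPM per kb in wild-type hearts 1, 3 and 4. The 4 binding proteins summed to 159, 173 and 203 CPM per kb in STAT3cKO, against 184, 201 and 149 CPM per kb in wild type, with no separation of the groups.

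**Figure D3:**
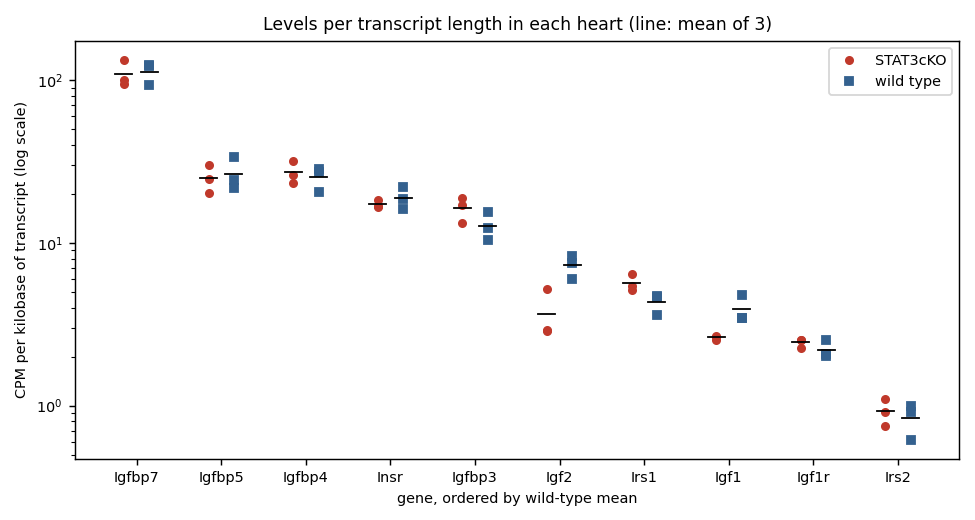
Level of each gene per transcript length (TMM CPM per kilobase, log axis) in STAT3cKO hearts (red circles, left) and wild-type hearts (blue squares, right), with a line at each mean of 3, ordered by the wild-type mean. Igfbp7 is highest and Irs2 lowest in both groups, and the ligands Igf1 and Igf2 are the members whose STAT3cKO points lie below all wild-type points.

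Another 83 genes of the pathway were followed by role, and 72 of them were tested. Of these 16 were lower and 4 higher (edgeR adjusted p under 0.05), or 22.2% and 5.56%, beside 12.6% and 13.2% of all genes tested, and their median log2 fold change was -0.12 against 0.00. With length correction 6 were lower (8.33%), all among the 16, and 8 were higher (11.1%), of which 2 were among the 4. These shares are near the 7.47% and 10.4% of all genes in that fit, and the median was 0.07 against 0.02. The genes lower in both fits were Htra1, Grb14, Deptor, Gys1, Tbc1d1 and Sesn3. Without STAT3cKO replicate 3, wild type replicate 3 or wild type replicate 4 the number lower was 10, 11 and 10, and the number higher was 2, 3 and 1. Leaving out wild type replicate 1 gave 13 lower and 1 higher, and leaving out STAT3cKO replicate 91 gave 12 lower and 3 higher. Leaving out STAT3cKO replicate 6 gave 19 lower and 5 higher. With library size as the only scaling, where the median of all genes moved to -0.11, 25 were lower and 0 higher. The endothelial, endocardial and macrophage markers given above were lower in the same hearts. Smooth muscle markers summed to 128 to 145 CPM in STAT3cKO hearts against 262 to 433 CPM in wild-type hearts (3 of 6 lower, 0 higher), and pericyte markers to 890 to 1174 CPM in STAT3cKO hearts against 1353 to 1522 CPM in wild-type hearts (4 of 7 lower, 0 higher). Schwann cell markers summed to 5.75 to 7.73 CPM in STAT3cKO hearts against 10.4 to 19.03 CPM in wild-type hearts (2 of 4 tested lower, 0 higher), and red blood cell markers to 334 to 685 CPM in STAT3cKO hearts against 90.7 to 159 CPM in wild-type hearts (4 of 5 higher, 0 lower). With length correction 3 smooth muscle markers were lower and 1 (Myocd) was higher, and 1 pericyte and 2 Schwann cell markers were lower. In that fit 0 red blood cell markers were higher and 0 lower. The part of these cell types in the counts was not tested.

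**Figure D4:**
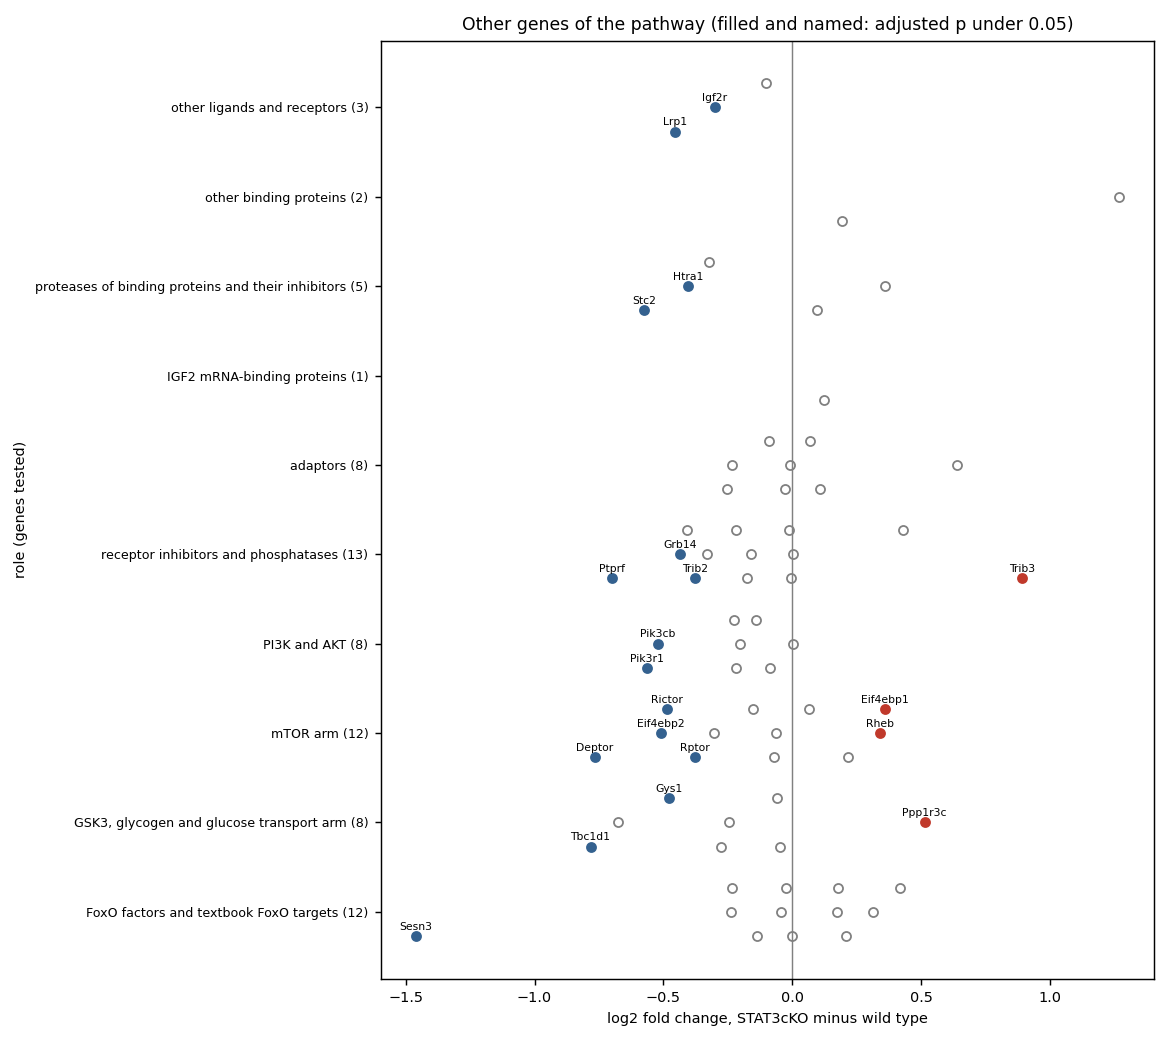
Log2 fold changes (STAT3cKO minus wild type) of the 72 tested genes of the pathway by role, with the number tested in parentheses, filled and named where the edgeR adjusted p was under 0.05 (blue lower, red higher). Of the named genes 16 lie below 0 and 4 above it.

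Among other ligands and receptors, the insulin gene Ins2 had 1 count in 1 STAT3cKO heart and none elsewhere, and Ins1 had none. Igf2r, which clears IGF2 by carrying it to lysosomes, was at 162 ± 20.4 CPM in STAT3cKO and 200.2 ± 7.89 CPM in wild type (SD, n = 3 each), a difference of -0.30 on the log2 scale (edgeR adjusted p = 0.046). It did not pass without STAT3cKO replicate 3 or 91 (adjusted p = 0.148 and 0.152) or wild type replicate 1, 3 or 4 (0.0981, 0.0788 and 0.126), at -0.34 to -0.23, and with length correction it was 0.09. The endocytic receptor Lrp1 was lower (-0.45, adjusted p = 0.0197), but not without STAT3cKO replicate 3 or 6 (0.0844 and 0.0519) or wild type replicate 3 (0.0905), at -0.42 to -0.33, and it was -0.01 with length correction. Ghr, the growth hormone receptor, which drives Igf1 transcription in the liver, was at 133 ± 27.5 CPM in STAT3cKO and 143 ± 11.7 CPM in wild type (SD, n = 3 each; -0.10, adjusted p = 0.607).

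Of the other binding proteins 0 of 2 tested passed in edgeR. An unadjusted p under 0.05 was reached by 1 (Igfbp6), beside 5586 of all 14484 genes tested. Igfbp6, which prefers IGF2, was at 27.2, 28.2 and 66.2 CPM in STAT3cKO hearts 3, 6 and 91, against 19.9, 16.9 and 13.8 CPM in wild-type hearts 1, 3 and 4. STAT3cKO replicate 91 stood far above the rest, and every STAT3cKO heart was above every wild-type heart. The log2 fold change was 1.27 (edgeR adjusted p = 0.102). DESeq2 (adjusted p = 0.025) and limma-voom (0.0194) called it, and so did edgeR without STAT3cKO replicate 91, at 0.72 (0.00478). Igfbp2 had 9 counts in wild type replicate 3, 1 in wild type replicate 4 and none in the other hearts.

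Of the genes that cut binding proteins, or restrain such proteases, 2 of 5 tested were lower (40%) and 0 higher. Among all genes tested 12.6% were lower and 13.2% higher. Htra1, a secreted protease of binding proteins, was at 51.7, 61.5 and 47.5 CPM in STAT3cKO hearts 3, 6 and 91, against 73.0, 69.7 and 70.0 CPM in wild-type hearts 1, 3 and 4. Its groups did not overlap (log2 fold change -0.41, edgeR adjusted p = 0.0127, and -0.49 with length correction, adjusted p = 0.00772). Without STAT3cKO replicate 3 or 91 it stood just outside the threshold (-0.38 and -0.32, adjusted p = 0.0502 and 0.0505). Stc2, a stanniocalcin that inhibits pappalysin proteases, was lower (-0.58, adjusted p = 0.0209) but not with length correction (0.0697) or without STAT3cKO replicate 3 (0.0646) or wild type replicate 3 (0.0838) or 4 (0.0693), with log2 fold changes of -0.56 to -0.44 in these fits. Htra3, a related secreted protease named after its values were seen, was in every STAT3cKO heart above every wild-type heart (0.36, adjusted p = 0.0518) and passed with length correction (0.33, 0.0395). DESeq2 called 3 genes of this group. Pappa, a pappalysin that releases IGFs from Igfbp4, was near 1 CPM in both groups (-0.32, adjusted p = 0.574).

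None of 8 tested adaptors passed in edgeR, and DESeq2 and limma-voom also called 0. An unadjusted p under 0.05 was reached by 2 of them, beside 5586 of all 14484 genes tested. Of 13 receptor inhibitors and phosphatases 3 were lower (23.1%) and 1 higher (7.69%), beside 12.6% and 13.2% of all genes tested. Grb14, an adaptor that binds and inhibits the insulin receptor, was at 87.9, 99.0 and 79.2 CPM in STAT3cKO hearts 3, 6 and 91, against 122, 116 and 122 CPM in wild-type hearts 1, 3 and 4. The groups did not overlap, and the difference of -0.44 (edgeR adjusted p = 0.00626) passed in all 16 other settings. Ptprf, a receptor phosphatase, was lower (-0.70, adjusted p = 0.0329), as was the pseudokinase Trib2 (-0.38, 0.0242). Trib3, a stress-induced pseudokinase that inhibits AKT, was higher, at 4.41 ± 0.612 CPM in STAT3cKO and 2.38 ± 0.740 CPM in wild type (SD, n = 3 each; 0.89, adjusted p = 0.0285). Ptprf did not pass without STAT3cKO replicate 3 (0.0993) or wild type replicate 1 (0.0814), 3 (0.0886) or 4 (0.0694), at -0.74 to -0.47, nor with length correction (-0.40, 0.225). Trib2 did not pass without STAT3cKO replicate 6 (0.058) or 91 (0.0517) or wild type replicate 1 (0.0757) or 4 (0.0954), at -0.37 to -0.31, nor with length correction (-0.23, 0.167). Trib3 did not pass without STAT3cKO replicate 3 (0.0964) or 91 (0.0602) or wild type replicate 1 (0.0524) or 4 (0.0999), at 0.65 to 0.99.

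Of 8 genes followed for PI3-kinase, PDK1 and AKT, 2 were lower (25%) and 0 higher, beside 12.6% and 13.2% of all genes tested. Pik3r1, the regulatory subunit p85 alpha, was at 104 ± 21.3 CPM in STAT3cKO and 153 ± 5.47 CPM in wild type (SD, n = 3 each; log2 fold change -0.56, edgeR adjusted p = 0.00726). The catalytic subunit Pik3cb was lower too (-0.52, adjusted p = 0.0109). Neither passed with length correction (0.0974 and 0.191). Pik3cb did not pass without wild type replicate 4 (-0.46, 0.05). Akt2, the AKT form tied to glucose uptake, was at 129 ± 8.74 CPM in STAT3cKO and 129 ± 4.44 CPM in wild type (SD, n = 3 each; adjusted p = 0.996), and the catalytic subunit Pik3ca did not pass (-0.14, adjusted p = 0.257).

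Of 12 genes of the mTOR arm 4 were lower (33.3%) and 2 higher (16.7%), beside 12.6% and 13.2% of all genes tested. Deptor, a subunit that restrains mTOR, was at 13.1, 16.6 and 13.03 CPM in STAT3cKO hearts 3, 6 and 91, against 22.4, 23.9 and 26.3 CPM in wild-type hearts 1, 3 and 4, and passed in all 16 other settings (log2 fold change -0.77, edgeR adjusted p = 0.00139, and -0.43 with length correction). Rptor (-0.38, adjusted p = 0.0107) and Rictor (-0.49, 0.0201), the defining subunits of mTOR complexes 1 and 2, were lower, as was the translation repressor Eif4ebp2 (-0.51, 0.00587). None of these passed with length correction (0.416, 0.452 and 0.167). The related Eif4ebp1 (0.36, 0.015) and the mTOR activator Rheb (0.34, 0.0119) were higher, and with length correction Eif4ebp1 passed (0.0465) and Rheb did not (0.0733). Rictor was lost without STAT3cKO replicate 3 (0.0865) or 91 (0.0688) or wild type replicate 3 (0.0713) or 4 (0.0671), at -0.47 to -0.39. Eif4ebp1 was lost without wild type replicate 1 (0.33, 0.0545), and Rheb without wild type replicate 3 (0.32, 0.0519) or 4 (0.31, 0.052).

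In the arm of glycogen and glucose transport 2 of 8 tested genes were lower (25%) and 1 higher (12.5%). Over all genes tested these shares were 12.6% and 13.2%. Gys1, the muscle glycogen synthase, was at 82.6, 73.2 and 67.1 CPM in STAT3cKO hearts 3, 6 and 91, against 108, 93.6 and 108 CPM in wild-type hearts 1, 3 and 4 (log2 fold change -0.48, edgeR adjusted p = 0.00509). Tbc1d1, a Rab GTPase-activating protein that holds back GLUT4 vesicles, was at 12.01, 12.6 and 10.1 CPM in STAT3cKO, against 20.0, 20.3 and 19.3 CPM in wild type (-0.78, adjusted p = 0.000987, and -0.49 with length correction). Both sets of groups were apart, and both calls passed in all 16 other settings. Ppp1r3c, which targets a phosphatase to glycogen, was higher (0.51, adjusted p = 0.0323), and this was lost with length correction where the log2 fold change hardly moved (0.52, adjusted p = 0.0562), and without STAT3cKO replicate 3 (0.108) or 91 (0.0946) or wild type replicate 1 (0.0926), 3 (0.104) or 4 (0.0671), at 0.41 to 0.56. Slc2a4, which encodes GLUT4, was at 2.52, 2.92 and 2.96 CPM in STAT3cKO hearts 3, 6 and 91, against 2.88, 6.92 and 3.73 CPM in wild-type hearts 1, 3 and 4 (-0.68, adjusted p = 0.125), with wild type replicate 3 far above the rest. Without that heart Slc2a4 was at -0.24 (adjusted p = 0.582). Leaving out each heart in turn gave -0.92 to -0.24, and Slc2a4 passed in 1 of the 16 other settings.

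Over all genes tested 12.6% were lower and 13.2% higher. Among 12 FoxO factors and textbook FoxO targets 1 was lower (8.33%) and 0 higher. That was Sesn3, a sestrin that restrains mTOR complex 1, at 3.21, 2.99 and 2.46 CPM in STAT3cKO hearts 3, 6 and 91, against 8.29, 8.71 and 6.75 CPM in wild-type hearts 1, 3 and 4. Every STAT3cKO heart was well below every wild-type heart, and the difference on the log2 scale, -1.46 ± 0.20 (SE; edgeR adjusted p = 0.000536), passed in all 16 other settings. Foxo1 did not pass (-0.24, adjusted p = 0.112), and 3 genes named after their values were seen, Fbxo32, Foxo3 and Sesn1, passed as higher with length correction (0.46, 0.29 and 0.28, adjusted p = 0.00757, 0.0383 and 0.047) and did not pass without it (0.17, -0.02 and 0.18).

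Patterns were compared by Pearson's r of log2 CPM over the 6 hearts, among 8731 genes with a mean of at least 3 log2 CPM. Members, mitochondrial genes and genes with Gm or Rik symbols were left out. The genes most like Igf1 were Kank1 (0.994), Pkhd1l1 (0.991) and Mettl14 (0.987). Most like Igf2 were Alas1 (0.995), Tnfrsf21 (0.995) and Tcf4 (0.993), and most like Irs1 were Eif5 (0.989), Rbm39 (0.988) and Calu (0.984). With 6 hearts in 2 groups that stand apart, such values describe levels that vary together over the hearts, the group difference included. An r above 0.95 was reached by 50 genes for Igf1, 185 for Igf2 and 42 for Irs1.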

How the data were processed

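The authors deposited raw read counts per gene symbol, 1 column for each of 6 hearts, with no normalization. Per the submitters' processing notes, HISAT2 and the build GRCm38 were used. The HISAT2 version, the counting program, annotation, strand setting and treatment of multi-mapping reads are not given in these sources. Per the labels' protocols, RNA was extracted with Trizol and libraries followed an Illumina protocol.

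The low-count filter filterByExpr (minimum count 10, edgeR 4.0.16) left 14484 genes. TMM scaling was used, and genotype, the only term in the model, was tested in R 4.3.3 by edgeR's quasi-likelihood F test with robust estimation. P-values were Benjamini-Hochberg adjusted over all genes tested (threshold 0.05), SEs are the fold change over the root of its F statistic, and log2 values are differences of STAT3cKO minus wild type. Transcript length and GC content came from the longest GENCODE M21 transcript of a symbol (protein-coding first), known for 93.8% of genes tested. For the offset, splines with 5 degrees of freedom were fitted to each heart's deviations, with a prior count of 2. The script was tested on simulated data. DESeq2 1.42.0 and limma-voom (limma 3.58.1) were alternatives. Coordinates are those of RefSeq on GRCm38.p6, to which 41483 symbols matched.

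Members and gene lists were chosen with earlier results of these data known. The rule for named genes took all 10 members, Stat3, every listed pathway gene that passed, and 10 pathway genes whatever their p. Ins2 and Igfbp2 of these were not tested. In the pathway lists, 1 further gene is not reported here and was left out of their counts.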

Additional observations from a re-analysis of the deposited data

How the results depend on the processing

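Of 16 other settings, Igf1 kept its direction and call in 15, Igf2 and Irs1 in 11 each. With library size alone the median of all genes moved to -0.11, 0 members were higher, and of the other pathway genes 0 were higher and 25 lower. Relative to that median Irs1 was at 0.41. With the length and GC offset 2 members were higher and 0 lower, and 8 other pathway genes were higher and 6 lower. Without the low-count filter 2 members were higher, the added gene being Igfbp3 (edgeR adjusted p = 0.0209). Leaving out 1 heart gave 0 to 2 members higher, 1 to 2 lower, 1 to 5 pathway genes higher and 10 to 19 lower. Log2 fold changes of opposite sign came with the offset for Insr (0.25), Igfbp5 (0.18), Igf2r (0.086), Ghr (0.00070), Pappa (0.070), Pik3ca (0.20) and Foxo1 (0.13), and with library size alone for Igfbp4 (-0.0091). For Akt2 they were -0.11 with library size alone, -0.022 without the low-count filter and -0.00072 with limma-voom. Leaving out 1 heart spanned 0 for Irs2 (-0.060 to 0.27), Igfbp4 (-0.036 to 0.19), Igfbp5 (-0.25 to 0.11), Igfbp7 (-0.20 to 0.054), Ghr (-0.28 to 0.026) and Akt2 (-0.056 to 0.042). The cause of these moves was not tested. Of the 20 pathway genes called, 5 passed in every setting. Pappa was not tested under the stricter filter. No paired analysis was possible because the groups share 1 replicate number only.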

Other observations

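H19, the imprinted noncoding RNA gene beside Igf2 on chromosome 7, is named outside the rule for named genes because the pair share control regions. H19 was at 15.5, 27.3 and 16.8 CPM in STAT3cKO replicates 3, 6 and 91, against 38.9, 22.5 and 34.8 CPM in wild type replicates 1, 3 and 4. Igf2 in the same hearts was at 13.6, 24.6 and 13.8 CPM in STAT3cKO and 39.3, 28.2 and 35.6 CPM in wild type. Within each genotype the hearts had the same order for the pair: replicate 6, then 91, then 3 in STAT3cKO, and replicate 1, then 4, then 3 in wild type. H19 differed from Igf2 in that STAT3cKO replicate 6 stood above wild type replicate 3. Its log2 fold change was -0.69 ± 0.28 (SE; edgeR adjusted p = 0.127). DESeq2 (adjusted p = 0.00861) and limma-voom (0.0446) called it lower, as did edgeR without a low-count filter (0.0039), without STAT3cKO replicate 6 (0.0197) and without wild type replicate 3 (0.0296).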
